A study of Drosophila melanogaster with 9 samples.

Results

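Drep1, Drep2, Drep3 and Drep4 are the 4 genes of the Drosophila family related to DNA fragmentation factors, and they were followed in all 9 ovary RNA libraries of a study of domesticated PIF transposases. They are 4 of 17559 genes in the count tables. The family was chosen by the levels of Drep4, higher in DPLG1 mutants, and of Drep1, higher in DPLG4 mutants, so these values are a description with no test. Of the 4 genes, 3 passed the filter on low counts and stand among the 8427 genes tested, while Drep3 did not pass.

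The study sequenced total RNA from ovaries of Drosophila melanogaster reared at 25 °C, in 3 groups of 3 libraries described as biological replicates. The mutant groups carry a mutation of DPLG1 or of DPLG4, titled as knockouts (KO), and the controls are titled w1118, a white-eyed laboratory strain. The alleles, the age of the flies, whether the mutants were made in w1118, and what the numbers in the titles stand for are not stated in the sources, so the numbers serve only as replicate names. DPLG1 (CG12253) had 0, 0 and 1 counts in its own mutant and 943 to 5550 in controls, and DPLG4 (CG7492) stood at 1.52 to 1.68 CPM (counts scaled to library size, with TMM factors) in its own mutant and at 114.8 to 167 CPM in controls. In DPLG1 mutants DPLG4 stood at 71.3 to 106 CPM, lower than in controls. In DPLG4 mutants DPLG1 stood at 58.1 to 76.8 CPM, against 54.0 to 69.4 CPM in controls.

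In dying cells of many animals, caspases cut an inhibitor called ICAD and so release its partner, the nuclease CAD, which cuts chromatin between nucleosomes. In Drosophila, Drep4 is the CAD nuclease and Drep1 is the ICAD inhibitor, and the proteins of the family share a CIDE-N domain through which such proteins bind each other. Drep2 is best known from synapses of the fly brain. In the fly ovary, nurse cells die in every egg chamber late in oogenesis and are cleared with the help of surrounding follicle cells, and poorly nourished egg chambers degenerate earlier with caspase activity and fragmented DNA.

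On build BDGP6.54, Drep4 (FBgn0028406) lies on 2L at 13283912 to 13286462 on the minus strand, with 1 annotated transcript of 2146 bases, of which 1350 are coding. It lies 2.29 Mb from CG12253 on the same arm. Drep1 (FBgn0024732) lies on 2R at 12044612 to 12050172 and Drep3 (FBgn0028407) at 12055089 to 12062866, both on the plus strand and 4.92 kb apart. Drep2 (FBgn0028408) lies on 2R at 9291856 to 9302821 on the plus strand and has the longest exons of the family, 6902 bases once its 4 transcripts are merged, against 2153 for Drep1 and 1804 for Drep3. CG7492 lies on 3L.

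Gene counts summed to between 18078883 and 95751320 per library. Control replicate 1 stood apart: 70.7% of its reads aligned to more than 1 place, against 8.02% and 7.61% in the other controls. The Drep4 changes against control are therefore also given without it. For Drep1 and Drep2, the extremes over fits that left out 1 library, this one among them, are given. The tissue label was checked against markers. All 8 matched germline markers were detected in every group, with summed levels of 2924 to 3447 CPM in controls, 2926 to 3314 in DPLG1 mutants and 2971 to 3344 in DPLG4 mutants. The 7 follicle cell markers were all detected as well, and their sum was 241 to 511 CPM in controls, 488 to 637 in DPLG1 mutants and 499 to 896 in DPLG4 mutants. Gut markers summed to at most 0.0643 CPM in controls and reached 43.9 CPM in a DPLG1 mutant library and 28.9 CPM in a DPLG4 mutant library. The part of these marker differences in the Drep results was not tested, and in bulk ovary RNA fewer cells of a type and less RNA per cell cannot be told apart.

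Drep4, the CAD nuclease, was measured at 8.70, 11.8 and 11.9 CPM in control replicates 1, 2 and 3. It stood at 28.1, 25.4 and 28.3 CPM in replicates 22, 5 and 7 of the DPLG1 mutant, and at 14.6, 12.9 and 11.2 CPM in DPLG4 mutant replicates 15, 3 and 7. All DPLG1 mutant libraries thus lay above all other libraries, while the DPLG4 mutant range overlapped that of controls. These levels rest on 204 to 1101 counts per control library and on 568 to 2377 counts per mutant library. The mean was 10.8 ± 1.82 CPM in controls, 27.3 ± 1.62 CPM in DPLG1 mutants and 12.9 ± 1.69 CPM in DPLG4 mutants (SD, n = 3). In DPLG1 mutants Drep4 was thus 2.52-fold the control level (log2 fold change 1.33, SE 0.15) and 2.12-fold the DPLG4 mutant level (log2 fold change 1.08, SE 0.15), values that chose the family. Without control replicate 1, the lowest control, the log2 fold change against control was 1.22. The choice did not rest on DPLG4 mutants against control. The control libraries of that comparison were used in choosing Drep4, and its DPLG4 mutant libraries enter the comparison of the mutants. In DPLG4 mutants against control the Drep4 log2 fold change of 0.25 (SE 0.15) missed the threshold (edgeR adjusted p = 0.582). This p is not independent of the choice. The log2 fold change was 0.13 without control replicate 1 and 0.15 without DPLG4 mutant replicate 15.

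Drep1, the ICAD inhibitor, was measured at 19.2, 17.0 and 18.6 CPM in control replicates 1, 2 and 3. It stood at 16.5, 17.2 and 18.7 CPM in replicates 22, 5 and 7 of the DPLG1 mutant, and at 30.0, 41.3 and 33.2 CPM in DPLG4 mutant replicates 15, 3 and 7. Here the DPLG4 mutant libraries lay above all others, and the DPLG1 mutant and control ranges overlapped. Means were 18.3 ± 1.15 CPM in controls, 17.5 ± 1.14 CPM in DPLG1 mutants and 34.8 ± 5.78 CPM in DPLG4 mutants (SD, n = 3). The DPLG4 mutant level was 1.91-fold the control level (log2 fold change 0.93, SE 0.13) and 1.997-fold the DPLG1 mutant level, again the values by which the family was chosen. DPLG4 mutant replicate 3 was the highest, and without it the log2 fold change against control was 0.79. Leaving out 1 library put this value between 0.79 and 1.03. In DPLG1 mutants, the Drep1 log2 fold change of -0.06 (SE 0.13) missed the threshold (edgeR adjusted p = 0.799). The control libraries of this comparison were also used in choosing Drep1, so this p is not independent of the choice. With upper quartile scaling the sign turned (log2 fold change 0.07), and leaving out 1 library put the value between -0.12 and -0.0087.

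**Figure D1:**
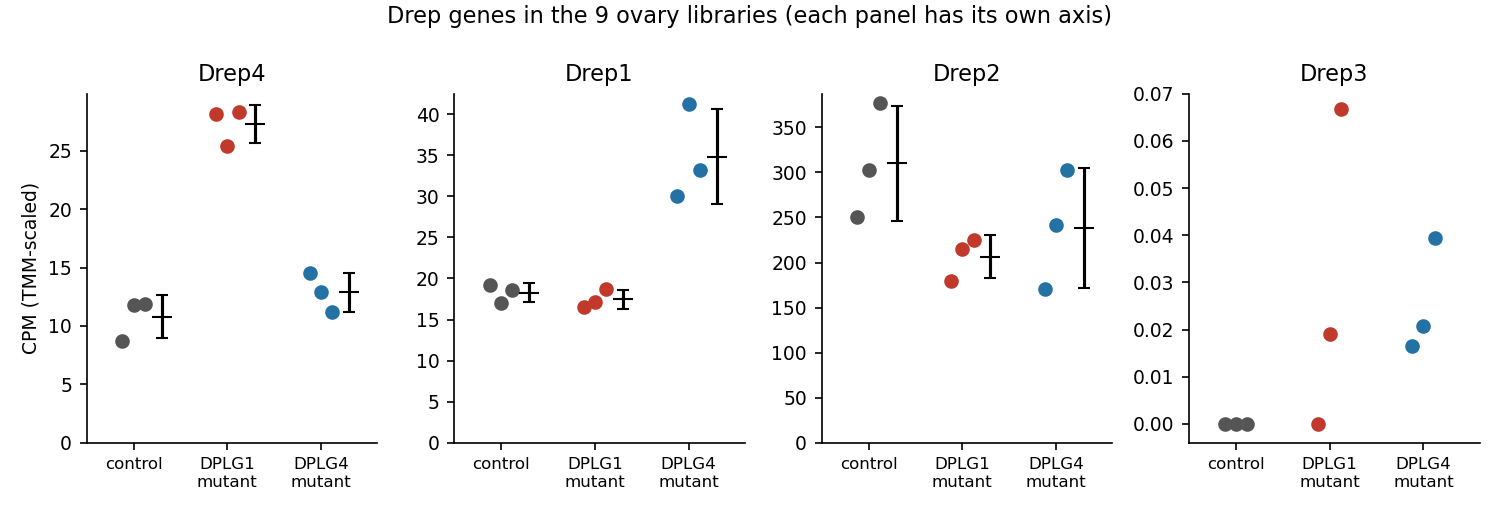
TMM-scaled CPM of Drep4, Drep1, Drep2 and Drep3 (vertical axes, 1 per gene) in the 3 control, 3 DPLG1 mutant and 3 DPLG4 mutant libraries; points are libraries, and black bars give the mean and SD over 3 libraries, left out for Drep3. Drep4 is at or above 25.4 CPM only in DPLG1 mutants, Drep1 is at or above 30.0 CPM only in DPLG4 mutants, and Drep3 reaches at most 0.0667 CPM.

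Drep2 had the highest CPM of the family in every library and was lower on average in both mutants, without passing the test. It stood at 250.2, 303 and 377 CPM in control replicates 1, 2 and 3, at 179, 215 and 225 CPM in replicates 22, 5 and 7 of the DPLG1 mutant, and at 171, 242 and 303 CPM in DPLG4 mutant replicates 15, 3 and 7. The DPLG1 mutant libraries all lay below the controls, and the DPLG4 mutant range spanned both. Against control the log2 fold change was -0.59 in DPLG1 mutants (SE 0.22, edgeR adjusted p = 0.277) and -0.38 in DPLG4 mutants (SE 0.22, adjusted p = 0.573), and the mutants differed from each other by -0.21 (SE 0.22, adjusted p = 0.866). Leaving out 1 library put the DPLG1 mutant value between -0.70 and -0.43. The DPLG4 mutant value was -0.19 without DPLG4 mutant replicate 15, -0.22 without control replicate 3 and -0.58 without DPLG4 mutant replicate 7. Once a trend of the libraries with exon length was removed, the DPLG1 mutant value was -0.16 and the DPLG4 mutant value -0.16 as well. Neuronal markers differed in level in these ovaries. In any library nSyb reached at most 0.148 CPM, Syt1 0.128 CPM, Rdl 0.0426 CPM, brp 0.341 CPM, futsch 0.356 CPM and elav 1.01 CPM. The marker cac stood at 1.92 to 2.56 CPM. Of the 8 matched neuronal markers all had counts somewhere in each group. Their sum was 43.3 to 47.5 CPM in controls, 38.4 to 39.4 in DPLG1 mutants and 30.1 to 43.5 in DPLG4 mutants. It came mostly from Syx1A, at 26.5 to 44.4 CPM over all libraries. The part of this difference in the Drep2 values was not tested.

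Drep3 was not detectable above the floor of 3 counts in any library. It had 0 counts in the 3 controls, 0, 1 and 3 in DPLG1 mutant replicates 22, 5 and 7, and 1, 2 and 2 in DPLG4 mutant replicates 15, 3 and 7. A count of 0 allows up to 0.0321 CPM in control replicate 2 and up to 0.172 CPM in control replicate 3, so no fold is given. Its exons share 418 bases with those of CG44314 on the same strand, a gene with 2 counts over all DPLG1 mutant libraries and 0 in the other groups.

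The share of genes called and the share whose libraries do not overlap give the scale for these differences. In DPLG1 mutants against control edgeR called 0.107% of tested genes at an adjusted p under 0.05, and 29.8% of tested genes had libraries that did not overlap between the groups. In DPLG4 mutants against control these shares were 0.427% and 16.3%, and between the mutants they were 0.629% and 15.5%. Of the 3 tested Drep genes, Drep2 and Drep4 did not overlap between DPLG1 mutants and controls, and Drep1 did not overlap between DPLG4 mutants and controls. The choice of the family used these comparisons, so nothing is read from the counts. Both mutants were compared with the same 3 control libraries.

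Per kilobase of merged exon, a measure used to set levels of different genes side by side, Drep2 led in all groups. The order of Drep1 and Drep4 differed between groups. Drep4 was divided by its full exon length, of which 52.7% is overlapped by a gene on the opposite strand. If reads there were counted for neither gene, the level of Drep4 and its place in the order would be too low. In controls Drep2 stood at 44.9 ± 9.25, Drep1 at 8.49 ± 0.535 and Drep4 at 5.03 ± 0.849 CPM per kilobase (SD, n = 3), and the libraries of neighbouring genes in this order did not overlap. In DPLG1 mutants the order was Drep2 at 29.9 ± 3.47, Drep4 at 12.7 ± 0.755 and Drep1 at 8.11 ± 0.529 CPM per kilobase. In DPLG4 mutants it was Drep2 at 34.6 ± 9.60, Drep1 at 16.2 ± 2.69 and Drep4 at 5.998 ± 0.787 CPM per kilobase. Among 8248 tested genes with a known length, 70.9% were below Drep2, 33.0% below Drep1 and 29.0% below Drep4 in controls. The inhibitor was thus among the less abundant transcripts tested, as was the nuclease when its full exon length was used. In DPLG1 mutants 40.97% were below Drep4, and in DPLG4 mutants 44.4% were below Drep1.

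The ratio of Drep4 to Drep1 counts per exon length, nuclease over inhibitor, is formed within a library and so does not depend on how libraries are scaled. It was 0.454, 0.696 and 0.642 in control replicates 1, 2 and 3, and 1.71, 1.48 and 1.52 in DPLG1 mutant replicates 22, 5 and 7. In DPLG4 mutant replicates 15, 3 and 7 it was 0.486, 0.313 and 0.338. By this measure the ratio exceeded 1 only in the DPLG1 mutant libraries. DPLG4 mutant replicate 15 lay within the control range, and the other DPLG4 mutant libraries lay below it. The measure uses the full exon length of Drep4, of which 52.7% is overlapped by a gene on the opposite strand. If reads there were counted for neither gene, the ratio and the Drep4 share would be too low in every library. Whether the nuclease exceeded the inhibitor within a library is therefore not settled. Group means were 0.597 ± 0.127 in controls, 1.57 ± 0.123 in DPLG1 mutants and 0.379 ± 0.0934 in DPLG4 mutants (SD, n = 3). The ratio is built from the values that chose the family and is not tested. Of the summed Drep counts per exon length, Drep2 made up 73.6% to 79.4% in controls, 55.6% to 61.2% in DPLG1 mutants and 54.4% to 68.0% in DPLG4 mutants. Drep4 made up 8.06% to 9.59% in controls, 23.2% to 28.0% in DPLG1 mutants and 8.07% to 14.9% in DPLG4 mutants.

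**Figure D2:**
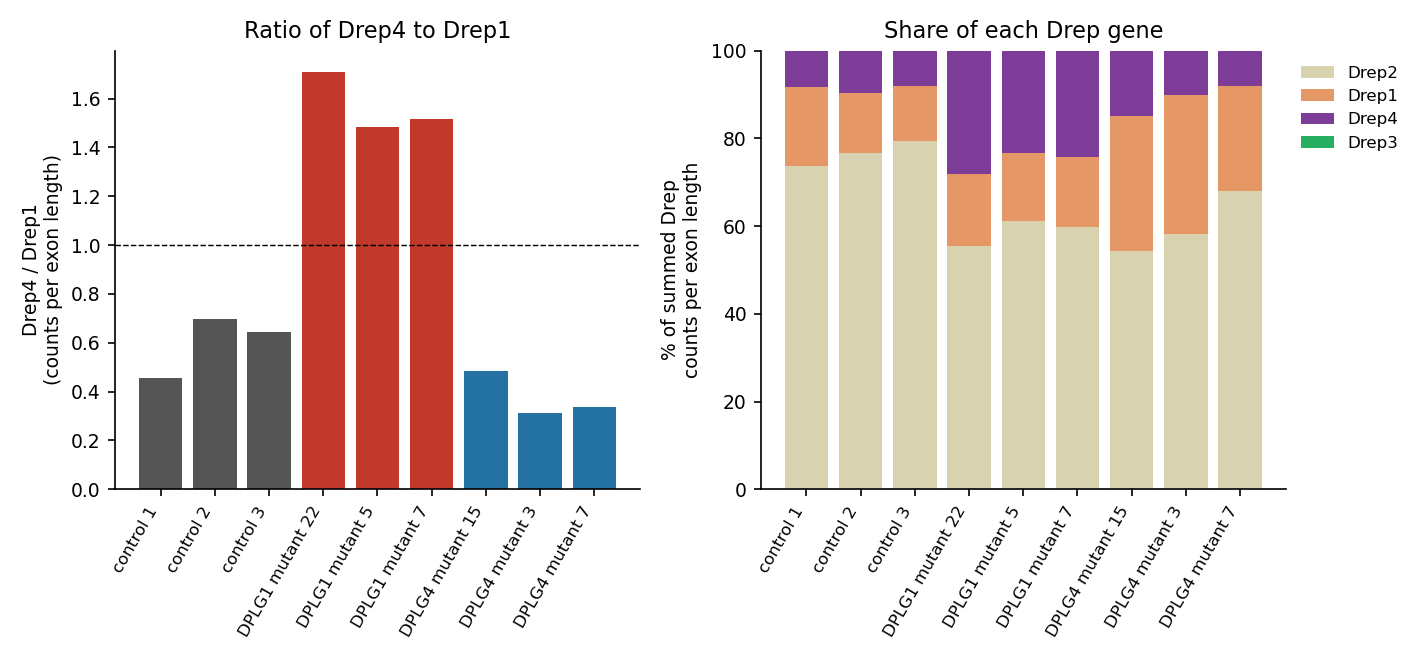
Left, ratio of Drep4 to Drep1 counts per exon length in each of the 9 libraries (bars, dashed line at 1); right, share in percent of each Drep gene in the summed Drep counts per exon length of a library. The ratio is above 1 only in the 3 DPLG1 mutant libraries (1.48 to 1.71), and Drep2 holds the largest share in all 9 libraries. Lengths are full exon lengths, so the ratio and the Drep4 share would be too low if reads overlapping opposite-strand genes were not counted.

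The genes around Drep4 and Drep1 were examined because Drep4 lies on the arm of the gene mutated in DPLG1 mutants, and because it overlaps genes on the opposite strand. The strand setting of the counting was not stated, so reads of such pairs cannot be told apart. The 3' end of Drep4 shares 132 exon bases, none of them coding, with CG44085, which stood at 5.82 CPM in controls and 6.03 CPM in DPLG1 mutants (log2 fold change 0.05, SE 0.27, edgeR adjusted p = 0.924). The antisense RNA gene asRNA:CR44083 covers 1131 exon bases of Drep4, or 52.7% of its exons, and had 1 count over all 9 libraries. Counted without strand, HTSeq in its default mode would assign reads in that stretch to neither gene. Uvrag, which starts 315 bases from Drep4 and whose product takes part in endosome and autophagosome maturation, stood at 19.7 CPM in DPLG1 mutants and 26.7 CPM in controls (log2 fold change -0.44, SE 0.25, adjusted p = 0.351). On the other side of Drep4, the nearest tested gene that does not overlap it is asRNA:CR45330, 39188 bases away. It fell in DPLG1 mutants (0.183 against 1.86 CPM, log2 fold change -3.32, SE 0.28, adjusted p = 0.00151) and stood at 1.79 CPM in DPLG4 mutants.

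Within 100 kb of Drep4, a window chosen after values were seen, 30 other genes were tested. In DPLG1 mutants 13 of them lay above 0, beside 51.6% of all tested genes, the median log2 fold change was -0.06, the highest was 0.90, and edgeR called none of them higher. At an unadjusted p under 0.05, 2 were higher and 5 lower, where 7.13% of all tested genes were higher and 9.85% lower. The antisense gene asRNA:CR45330 was called lower, and the lowest value, -4.37 (SE 0.80), was that of Jhbp13, which did not pass (adjusted p = 0.134). Around Drep1, 23 other genes were tested within 100 kb. In DPLG4 mutants edgeR called none of them, and at an unadjusted p under 0.05 none was higher and 1 was lower, where 7.32% and 3.45% of all tested genes were. Their median log2 fold change was 0.02 and the highest was 0.49. Polr3B, a subunit of an RNA polymerase next to Drep1, stood at 42.6 CPM in DPLG4 mutants and 46.5 CPM in controls (log2 fold change -0.13, SE 0.19, adjusted p = 0.765), and CG8888, on the other side, at 0.811 and 0.573 CPM (log2 fold change 0.47, SE 0.32, adjusted p = 0.613). Myd88, an adaptor of Toll signalling that ends 2 bases from Drep2 on the opposite strand, stood at 41.5 CPM in DPLG1 mutants and 56.8 CPM in controls (log2 fold change -0.45, SE 0.21, adjusted p = 0.302). Mad1, a spindle checkpoint gene on the other side of Drep2, was at 113 and 119 CPM (log2 fold change -0.08, SE 0.13, adjusted p = 0.742).

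**Figure D3:**
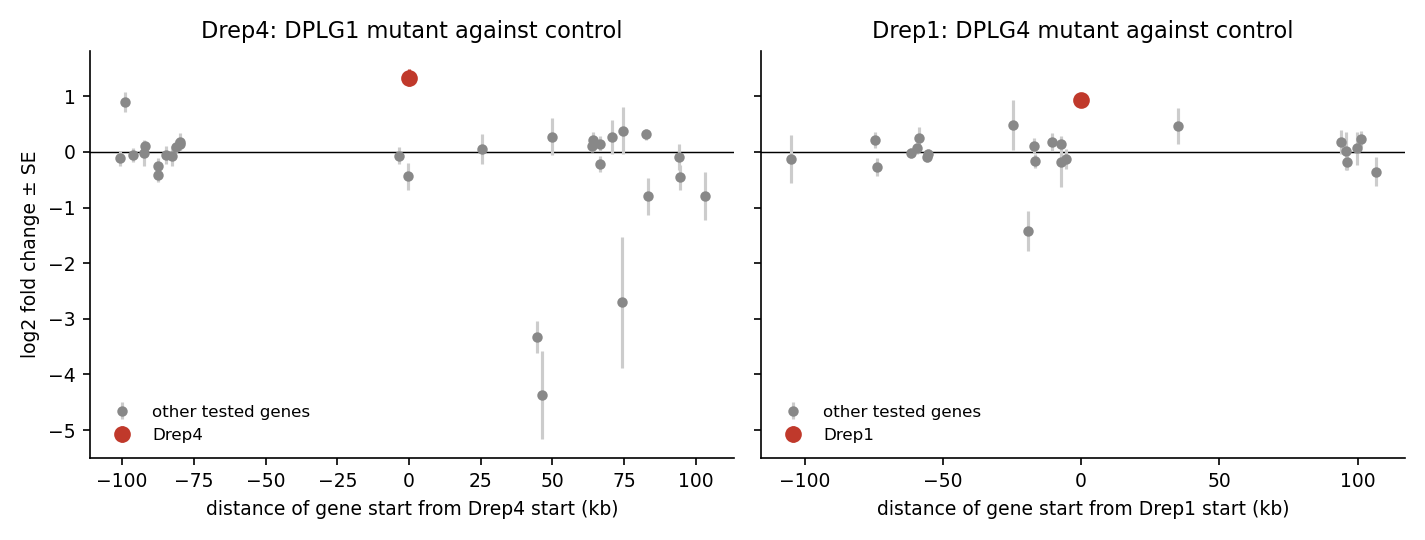
Log2 fold change with its SE for tested genes within 100 kb of Drep4 in DPLG1 mutants (left) and of Drep1 in DPLG4 mutants (right), against the distance of each gene start from the Drep gene's start in kilobases, positive in the direction of its transcription. Drep4 (1.33) and Drep1 (0.93) lie above all other genes of their windows, whose highest values are 0.90 and 0.49. These Drep values chose the family, so nothing is read from their rank among neighbours that were not chosen. The genes asRNA:CR45330 and Jhbp13 near Drep4 lie at -3.32 and -4.37.

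Genes with profiles most like Drep4 and Drep1 were found by the root mean square difference of centred log2(CPM + 1) over the 9 libraries. For Drep4 they were FBgn0029128, which has no symbol in the tables used, at a difference of 0.219, bam at 0.233, Arc2 at 0.235 and stol at 0.246, against a median of 0.596 over all tested genes. The germline differentiation factor bam stood at 34.7 to 37.4 CPM in controls, 58.2 to 65.3 CPM in DPLG1 mutants and 30.7 to 39.6 CPM in DPLG4 mutants. In the same order, the capsid gene Arc2 stood at 6.91 to 7.50, 21.9 to 26.3 and 6.69 to 9.24 CPM. The closest match, FBgn0029128, averaged 0.902, 3.03 and 1.67 CPM. Its DPLG4 mutant log2 fold change was 0.89 (SE 0.23), where that of Drep4 was 0.25 (SE 0.15). The gene stol averaged 0.0881, 0.875 and 0.130 CPM, and for both of these genes the added 1 CPM narrows differences. For Drep1 they were CG5665 at 0.0813, CG42540 at 0.129, CG40298 at 0.148 and BHD at 0.162, against a median of 0.490. All 4 lie on 3L, whereas Drep1 lies on 2R. Of the Drep4 matches, bam lies on 3R, Arc2 on 2R and stol on 2L, and FBgn0029128 has no position. The share of all tested genes on 3L was not counted, so nothing is read from these positions. BHD, the folliculin gene, stood at 4.01 to 6.18 CPM in controls, 4.14 to 5.51 CPM in DPLG1 mutants and 7.59 to 10.7 CPM in DPLG4 mutants, and the other 3 genes were at most 2.36 CPM, where the added 1 CPM narrows differences. These genes were picked for likeness, so their values are a description.

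The wider pathway was described with 8 lists of cell death, clearance, autophagy and DNA damage genes, 106 genes in all, of which 85 were tested. edgeR called none of them in any comparison at an adjusted p under 0.05. Of all tested genes it called 0.107% in DPLG1 mutants, 0.427% in DPLG4 mutants and 0.629% between the mutants. With shares this small, the lack of calls among 85 genes is not read as a lack of change. Taking instead an unadjusted p under 0.05, 16 of the 85 (18.8%) passed in DPLG1 mutants against control, beside 17% of all tested genes. Of these 9 were higher and 7 lower, where 7.13% of all genes were higher and 9.85% lower. In DPLG4 mutants 5.88% passed, beside 10.8% of all genes, with 3 higher and 2 lower where the shares of all genes were 7.32% and 3.45%. Between the mutants 10.6% passed, beside 7.55%, with 8 higher in DPLG1 mutants and 1 lower where the shares were 3.65% and 3.89%. DESeq2 called 3, 1 and 3 of them in these comparisons, where it called 2.9%, 2.25% and 1.96% of all genes. The median log2 fold change of the 85 genes was -0.06 in DPLG1 mutants and -0.05 in DPLG4 mutants, beside 0.01 and -0.01 over all tested genes. Libraries of DPLG1 mutants and controls did not overlap for 37.6% of the 85, with 18 higher and 14 lower, beside 29.8% of all tested genes. For DPLG4 mutants and controls the share was 16.5%, with 6 higher and 8 lower, beside 16.3%. Between the mutants it was 18.8%, with 14 higher in DPLG1 mutants and 2 lower, beside 15.5%.

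The caspases, which act just upstream of Drep1 and Drep4, were described with 7 genes, of which 5 were tested, with median log2 fold changes of 0.19 in DPLG1 mutants and -0.02 in DPLG4 mutants. Drice, an effector caspase able to cut the inhibitor, stood at 118 ± 5.17 CPM in controls, 135 ± 7.53 CPM in DPLG1 mutants and 117 ± 1.48 CPM in DPLG4 mutants (SD, n = 3). Its log2 fold change in DPLG1 mutants was 0.19 (SE 0.09, edgeR adjusted p = 0.298). The initiator caspase Dronc was at 93.0 CPM in controls and 108 CPM in DPLG1 mutants (log2 fold change 0.22, SE 0.09, adjusted p = 0.289), and the caspase Dredd, known from immune signalling, at 23.3 and 28.7 CPM (log2 fold change 0.30, SE 0.11, adjusted p = 0.276). The effector caspase Dcp-1, known for its part in death of egg chambers, was at 59.5 CPM in controls, 56.0 CPM in DPLG1 mutants and 57.5 CPM in DPLG4 mutants (adjusted p = 0.599 and 0.825). Strica was at 15.1, 12.7 and 12.6 CPM in the same order (adjusted p = 0.320 and 0.489).

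Dark, the scaffold on which Dronc is activated, was the pathway gene with the smallest p in DPLG1 mutants. It stood at 6.65 to 8.14 CPM in controls, 9.72 to 13.5 CPM in DPLG1 mutants and 6.56 to 7.75 CPM in DPLG4 mutants. The DPLG1 mutant libraries lay above all others, as for Drep4. Its log2 fold change against control was 0.66 in DPLG1 mutants (SE 0.16), which did not pass edgeR (adjusted p = 0.235) and passed DESeq2 (adjusted p = 0.0167). In DPLG4 mutants it was -0.09 (SE 0.16, edgeR adjusted p = 0.808), and between the mutants DESeq2 called Dark as well (adjusted p = 0.000975, edgeR adjusted p = 0.111). In the same list of 7 genes, of which 5 were tested, the mitochondrial factor AIF stood at 155 CPM in DPLG1 mutants against 203 CPM in controls (edgeR adjusted p = 0.311) and the Bcl-2 family gene Debcl at 52.3 against 68.4 CPM (edgeR adjusted p = 0.335). The list medians were -0.06 in DPLG1 mutants and -0.10 in DPLG4 mutants.

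Among inhibitors of apoptosis, Diap1, which holds Dronc and Drice in check, was at 73.8 CPM in controls, 79.0 CPM in DPLG1 mutants and 77.6 CPM in DPLG4 mutants (edgeR adjusted p = 0.598 and 0.765). Det, the survivin-like member, was at 51.2 to 53.1, 61.7 to 72.6 and 56.1 to 78.0 CPM, above all controls in every mutant library (edgeR adjusted p = 0.276 and 0.398). Bruce, a large ubiquitin-conjugating inhibitor known from sperm and nurse cell death, was at 252, 177 and 195 CPM in the same order (adjusted p = 0.294 and 0.584), and in DPLG1 mutants its log2 fold change turned from -0.51 to 0.05 once the length trend was removed. The death activators rpr, grim and skl did not pass the filter on low counts. The list had 5 tested genes of 8 and medians of -0.10 and 0.07.

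Of the 9 other nucleases listed, 3 were tested and none passed. DNaseII, the acid nuclease that digests DNA of engulfed nurse cells, was low throughout, at 0.118 to 0.426 CPM in controls, 0.192 to 0.556 CPM in DPLG1 mutants and 0.132 to 0.269 CPM in DPLG4 mutants, without passing the test (edgeR adjusted p = 0.689 and 0.855). EndoG, the mitochondrial endonuclease G, was at 34.5 ± 0.458, 31.5 ± 1.44 and 33.9 ± 2.64 CPM (SD, n = 3) in the same order (edgeR adjusted p = 0.424 and 0.911). Fen1, a flap nuclease of DNA replication, was at 82.9, 87.9 and 90.0 CPM (adjusted p = 0.588 and 0.629). The other 6 listed nucleases did not pass the filter.

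Engulfment and lysosome genes included 2 genes called by DESeq2. The protease gene cathD stood at 283 to 304 CPM in controls, 356 to 369 CPM in DPLG1 mutants and 331 to 391.9 CPM in DPLG4 mutants, above all controls in all 6 mutant libraries. Its log2 fold changes were 0.31 (SE 0.09) and 0.33 (SE 0.09), with edgeR adjusted p = 0.269 and 0.241 and DESeq2 adjusted p = 0.0254 and 0.0173. The scavenger receptor gene crq was at 435 CPM in DPLG1 mutants against 367 CPM in DPLG4 mutants (DESeq2 adjusted p = 0.0317, edgeR adjusted p = 0.409) and 383 CPM in controls. The engulfment receptor gene drpr, which follicle cells use to clear nurse cells, was at 47.5 CPM in DPLG1 mutants, 54.5 CPM in DPLG4 mutants and 62.5 CPM in controls (edgeR adjusted p = 0.276 and 0.600). Itgbn, an integrin subunit, was at 0.854 CPM in DPLG4 mutants against 1.49 CPM in controls (adjusted p = 0.437), and mbc, a regulator of Rac, at 124 against 153 CPM (adjusted p = 0.561). The lysosomal protease CtsL1 was at 943 and 927 against 811 CPM (adjusted p = 0.281 and 0.467) and the proton pump subunit Vha55 at 457 and 563 against 606 CPM (adjusted p = 0.276 and 0.759). Median log2 fold changes were -0.06 and -0.06 over 13 tested engulfment genes, and -0.11 and 0.02 over 16 tested lysosome genes.

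Of 20 tested autophagy genes, 5 had a log2 fold change above 0 in each mutant, beside 51.6% of all tested genes in DPLG1 mutants and 48.9% in DPLG4 mutants, and the medians were -0.11 in both. The mutants share their controls here too, so these counts are not independent. Atg3, a conjugating enzyme of the Atg8 pathway, was at 35.2 ± 6.47 CPM in DPLG1 mutants and 53.4 ± 5.16 CPM in controls (SD, n = 3, edgeR adjusted p = 0.255, DESeq2 adjusted p = 0.0391). Atg2 was at 39.2 against 72.6 CPM (edgeR adjusted p = 0.276), and Atg18a at 69.9 CPM in DPLG4 mutants against 89.8 CPM (adjusted p = 0.371). Both Atg3 and Atg18a were below all controls in every mutant library. The 18 DNA damage genes had medians of 0.07 and -0.07. The transcription factor gene p53 was above all controls in every mutant library, at 36.8 ± 2.97 and 37.8 ± 5.57 against 30.3 ± 0.886 CPM (SD, n = 3, edgeR adjusted p = 0.294 and 0.431). The break-processing gene mre11 was at 64.8 CPM in DPLG1 mutants against 73.4 CPM in controls (adjusted p = 0.2998), and Xrp1, a stress transcription factor, at 7.89 CPM in DPLG4 mutants against 5.28 CPM (adjusted p = 0.566). The checkpoint gene mus304 was at 91.7 CPM in DPLG1 mutants and 77.9 CPM in DPLG4 mutants (DESeq2 adjusted p = 0.0373, edgeR adjusted p = 0.440).

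**Figure D4:**
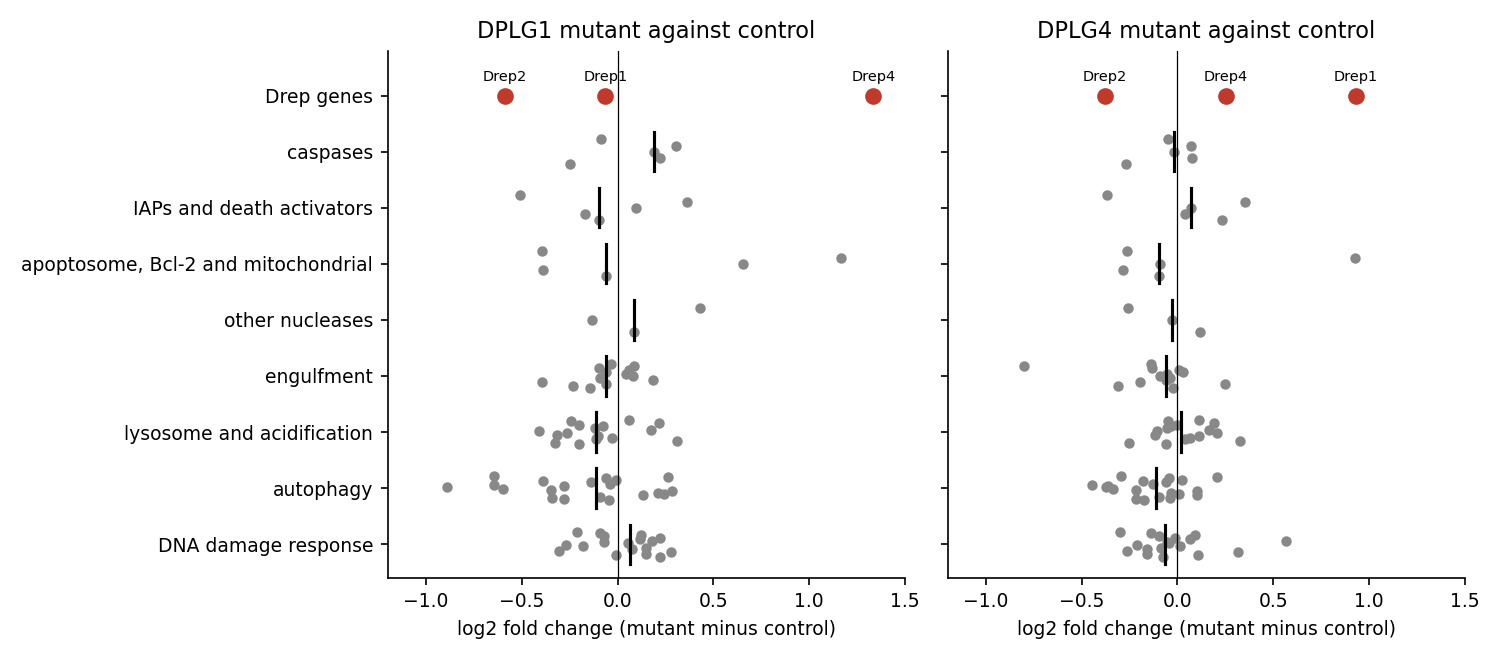
Log2 fold change of the 3 tested Drep genes (red) and of the 85 tested genes of 8 pathway lists (grey points, black bars at the list medians) in DPLG1 mutants (left) and DPLG4 mutants (right) against control. Drep4 in DPLG1 mutants lies at 1.33 and Drep1 in DPLG4 mutants at 0.93, the values by which the family was chosen, and the rightmost listed gene in each panel is the Bcl-2 family gene Buffy at 1.17 (SE 0.69) and 0.92 (SE 0.69), which did not pass (edgeR adjusted p = 0.365 and 0.632).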

How the data were processed

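The authors deposited raw read counts per gene, 1 table per library, with 17559 genes and HTSeq summary lines. Tools listed per the submitters' processing notes were STAR 2.5, HTSeq, FastQC and DESeq2, and the builds named were BDGP6 and GRCh37. The annotation release, the strand setting and the role of the human build are not stated there. Summary lines, 11.5% to 13.8% of reads and 72.0% in control replicate 1, stayed out of library sizes. Symbols, positions and exon lengths came from Ensembl BDGP6.54, and 17253 identifiers matched. Of 106 pathway genes 99 matched.

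Counts were analysed with edgeR 4.0.16 in R 4.3.3: filterByExpr by group, TMM, and a robust quasi-likelihood model of group over all 9 libraries, with Benjamini-Hochberg adjustment over 8427 genes and calls at 0.05. An unmarked adjusted p is from edgeR. The SE is the log2 fold change over the square root of F. Floors of 3 counts cover counting error only. The test was also run on simulated counts, but the outcome is not given here and nothing above rests on it. Alternatives included DESeq2 1.42.0 and removal of a lowess trend with exon length. Named genes were the Drep genes, their overlapping and adjacent genes, the 4 closest profiles, the 2 members of each list with the smallest p in each mutant, and Drice, Dcp-1, Dronc, Diap1, DNaseII and EndoG. DESeq2 calls, Buffy and Jhbp13 were named after their values were seen. Members and lists were chosen with earlier results of these data known. Sequences were not used here.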

Additional observations from a re-analysis of the deposited data

How the results depend on the processing

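The Drep comparisons given a p missed the threshold in the 7 other settings and in the 9 fits that left out a library. With upper quartile scaling, which moved the median log2 fold change of all genes in DPLG1 mutants from 0.01 to 0.15, Drep1 in DPLG1 mutants turned to 0.0744. Leaving out 1 library put Drep2 between the mutants at -0.40 to 0.00766, the latter without DPLG4 mutant replicate 7. DESeq2 called 229, 213 and 206 genes in DPLG1 mutants, in DPLG4 mutants and between the mutants, where edgeR called 9, 36 and 53. Removing the length trend gave 19, 56 and 100 genes, and fitting only the 6 libraries compared gave 12 in DPLG4 mutants and 29 between the mutants. Leaving out 1 library gave 6 to 16, 11 to 36 and 24 to 51, and in DPLG4 mutants the count was at most 20 unless the library left out was DPLG4 mutant replicate 7. The cause was not tested.

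Log2 fold changes of some uncalled pathway genes changed sign, among them Bruce, mbc and DNaseII, which stood at -0.51, -0.23 and 0.43 in DPLG1 mutants. With upper quartile scaling they were 0.0492 and 0.0391 for Dcp-1 and 0.00571 and 0.0770 for EndoG in DPLG1 and DPLG4 mutants, and 0.00494 for Dark, 0.0784 for Drice and 0.0386 for crq in DPLG4 mutants. Without the length trend they were 0.0460 for Bruce, -0.0202 for Fen1 and 0.22 for mbc in DPLG1 mutants, and 0.13 for Dark and 0.0416 for crq in DPLG4 mutants. In DPLG4 mutants Drice was at 0.00301 with a minimum of 1 CPM and at 0.000698 in the fit of 6 libraries, and mre11 at -0.00220 with DESeq2's size factors and -0.00341 with its test. Leaving out 1 library gave -0.11 to 0.90 for DNaseII, -0.12 to 0.31 for Itgbn and -0.0709 to 0.36 for Xrp1 in DPLG1 mutants. In DPLG4 mutants it gave -0.80 to 0.21 for DNaseII, -0.11 to 0.0305 for Dcp-1, -0.00543 to 0.16 for Dredd, -0.0424 to 0.0341 for Drice, -0.0833 to 0.0338 for EndoG, -0.22 to 0.00846 for Vha55 and -0.0203 to 0.0475 for mre11.

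Drep3 was at or under the floor in all libraries. No fold is reported for it here, although settings without the filter on low counts computed one. Per kilobase of its longest transcript, Drep2 stood at 35.4 CPM in DPLG1 mutants in place of 29.9. No paired analysis was possible because the groups share at most 1 replicate number. Groups of 3 libraries and the 18078883 counts of the shallowest library limit what the tests can show for weakly expressed genes such as Drep3 and DNaseII.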
